A study of Mus musculus with 6 samples.

Results

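JAK kinases and STAT factors carry cytokine signals from the cell surface to the nucleus. JAKs are tyrosine kinases held on the inner tails of cytokine receptors, and a bound cytokine brings them together so that they phosphorylate STAT proteins, which pair up and bind DNA. In neutrophils this route serves the growth factors that keep the cells alive, the interferons and the anti-inflammatory cytokine IL-10. The 9 genes described here are the kinase genes Jak1, Jak2, Jak3 and Tyk2 and the factor genes Stat2, Stat3, Stat5a, Stat5b and Stat6. They are listed by name as a gene family, with earlier results of these data known, and the list does not take in every STAT gene. All 9 were found among the 25663 gene IDs of the count table and all 9 had enough counts to be tested, among 13468 tested genes.

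The samples were neutrophils of C57BL/6 mice, sorted by flow cytometry from bone marrow as cells positive for CD45, CD11b and Ly6G. One group of 3 was kept for 6 hours with lipopolysaccharide (LPS), a bacterial cell wall component, and the other group of 3 with LPS and resveratrol, a plant polyphenol, at an amount written as 25 μmol. Every sample had LPS, so the comparison is of resveratrol on top of LPS and not of LPS itself. The series title places it in hepatic ischemia-reperfusion injury and ERK signalling. The design text mentions sequencing in duplicate, whereas the labels give 3 samples in each group. Whether these are from different mice or cultures is not labelled, so p-values cover the spread among these samples alone, and that spread may be technical. The total count per library lay between 18141352 and 19928153, and levels are given as CPM, a gene's counts relative to its library's total, on totals scaled by the TMM method of edgeR.

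Neutrophil transcripts, among them those of the granule genes Ngp, Lcn2 and Camp, which immature neutrophils make, were abundant in every library. The 12 neutrophil markers summed to 76527 to 83324 CPM in the LPS libraries and 56946 to 93397 CPM with resveratrol, and those of monocytes and macrophages to 2567 to 2612 and 2513 to 2766 CPM. Within the latter list genes went both ways: Csf1r, Ly6c2, Ccr2 and Cx3cr1 were lower and Adgre1 higher in every resveratrol library than in any LPS library. These 5 genes did not pass over 6 libraries (edgeR adjusted p from 0.0844 to 0.281), and without LPS+resveratrol replicate 1 those 4 and F13a1 fell and Adgre1 and Ms4a6c rose. Markers of eosinophils, basophils and mast cells summed to 172.6 to 184.0 and 84.7 to 163.8 CPM, of erythroid cells to 8.68 to 9.58 and 4.32 to 5.56 CPM, of megakaryocytes and platelets to 16.7 to 20.3 and 8.75 to 16.5 CPM, and of dendritic cells to 17.2 to 20.5 and 17.8 to 19.8 CPM, and their part in the results was not tested. LPS+resveratrol replicate 1 stood apart: its highest correlation of log2 CPM with any other library, across genes, was 0.964, against at least 0.990 for each of the others. It held the lowest neutrophil marker sum, but single markers went both ways there. S100a8 and S100a9 were at 2579 and 8125 CPM, against at least 9615 and 21248 CPM in every other library. Csf3r, Cxcr2 and Ptprc, at 1690, 717.0 and 3259 CPM, were the highest of all 6 libraries. The cause was not tested. The results of the 9 genes are therefore given over 6 libraries and over the 5 libraries without LPS+resveratrol replicate 1. Over those 5, 7 of the 12 neutrophil markers rose (S100a8, Ly6g, Mmp9, Lcn2, Camp, Ngp and Ptprc) and 0 fell (edgeR adjusted p under 0.05). Among all tested genes 12.1% rose and 13.3% fell there. Over 6 libraries 0 of the 12 passed.

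With all 6 libraries, 0 of the 9 genes passed (edgeR quasi-likelihood test, adjusted p under 0.05), where the background was 0.668% of tested genes higher and 1.17% lower, 1.83% in all. At an unadjusted p under 0.05 there were 2, Jak3 and Tyk2, against 19.9% of all tested genes, and DESeq2 and limma-voom also called 0. Without LPS+resveratrol replicate 1, Tyk2 rose and Jak3, Stat2 and Stat6 fell, with changes of 20.03%, −20.35%, −16.3% and −12.9%, and the other 5 genes did not pass. These 4 calls of 9 stand against a background of 25.4% of tested genes in either direction in the same 5 libraries (12.1% higher and 13.3% lower). The median log2 fold change of the 9 genes was 0.13 over 6 libraries and −0.03 over 5, where that of all tested genes was 0.00 and −0.01. The RNA came from whole sorted populations, in which fewer cells of a type and less RNA per cell cannot be told apart.

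**Figure D1:**
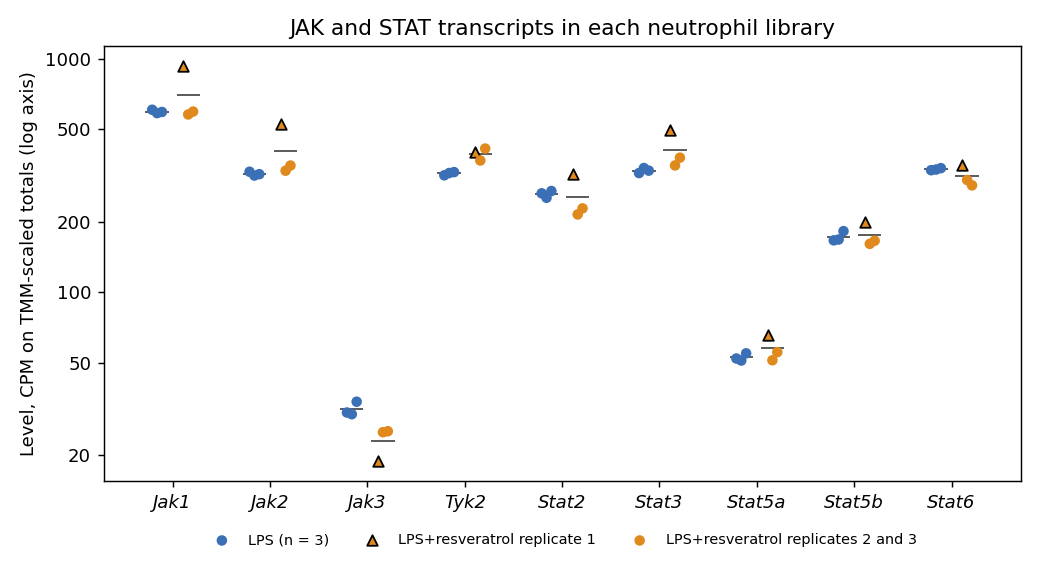
Level of each gene in each library, in CPM on TMM-scaled totals on a log axis, with blue points for LPS, orange points for LPS+resveratrol replicates 2 and 3, a black-edged triangle for LPS+resveratrol replicate 1 and a line at each group's mean of 3. The triangle is the highest of all 6 values for Jak1, Jak2, Stat2, Stat3, Stat5a, Stat5b and Stat6, and the lowest for Jak3.

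Per length of transcript, Jak1 was the most abundant of the 9 and Jak3 the least. With LPS, Jak1 was at 121.4 ± 2.04 CPM per kb of its longest coding transcript (SD, n = 3), followed by Stat6 at 89.3 ± 0.934, and Stat5b, Stat5a and Jak3 came last at 33.2 ± 1.69, 13.5 ± 0.498 and 7.84 ± 0.533 CPM per kb. Between them lay Tyk2 at 67.0 ± 1.09, Jak2 at 64.1 ± 1.22, Stat2 at 60.1 ± 2.02 and Stat3 at 55.1 ± 1.37 CPM per kb. The lowest LPS value of Tyk2 (65.8 CPM per kb) lay just above the highest of Jak2 (65.4), a gap smaller than either SD. The order of these middle 4 changed when the median transcript or all exon bases were used as the length, whereas the first 2 and last 3 places did not. Among the 4 kinases, Jak3 made up 2.90% to 3.24% of the summed level per kb in the LPS libraries.

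Tyk2 is the kinase of the type I interferon receptor chain Ifnar1 and of receptors for IL-10, IL-12 and IL-23. It was at 317.5, 324.8 and 327.7 CPM in the LPS libraries and at 398.7, 367.5 and 413.5 CPM in LPS+resveratrol replicates 1, 2 and 3. Every resveratrol library was above every LPS library. Its log2 fold change was 0.28 ± 0.0948 (SE, n = 3 each) and did not pass over 6 libraries (edgeR adjusted p = 0.174), and it was 0.26 ± 0.0554 without LPS+resveratrol replicate 1 (edgeR adjusted p = 0.000347), a rise of 20.03%. Of the 9 genes, Tyk2 was the one for which LPS+resveratrol replicate 1 departed least from replicates 2 and 3, lying 0.03 above their mean on the log2 scale. The 5-library call was lost when LPS+resveratrol replicate 3 was also left out (log2 fold change 0.17, edgeR adjusted p = 0.100), a fit with a single resveratrol library that is assumed to vary like the LPS ones. In the GENCODE M21 annotation, 8.07% of the exon bases of Tyk2 are shared with the opposite-strand gene 1700084C06Rik, whose reads cannot be told apart without strand.

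Jak3 is the kinase bound to the common gamma chain Il2rg and is best known from lymphocytes. It was at 30.55, 30.04 and 33.98 CPM with LPS and at 18.9, 25.2 and 25.4 CPM in LPS+resveratrol replicates 1, 2 and 3. The groups did not overlap, and replicate 1 was the lowest of all. The log2 fold change was −0.45 ± 0.146 (SE, n = 3 each; edgeR adjusted p = 0.168) over 6 libraries and −0.33 ± 0.0841 without that library (edgeR adjusted p = 0.00294), a fall to 0.797 of the LPS level. Without LPS+resveratrol replicate 1 the call held in all 11 fits tried, with log2 fold changes from −0.37 to −0.26. The summed levels of T and NK cell markers were lower as well: the 6 T cell markers, all of them detected, summed to 13.98 to 16.06 CPM with LPS and 10.5 to 12.5 CPM with resveratrol, and the 6 NK cell markers to 10.2 to 12.2 and 6.948 to 7.595 CPM. Most single markers were lower: over 6 libraries 5 of 6 T cell markers and 4 of 5 tested NK cell markers had a negative log2 fold change. The exceptions were Cd3e at 0.40 and Eomes at 0.32, and the negative ones included −0.95 for Cd3d and −1.23 for Gzma. The lowest edgeR adjusted p over 6 libraries was 0.210 among the T cell and 0.131 among the NK cell markers, and over 5 libraries Cd8a, Ncr1 and Nkg7 fell. The B cell marker sums overlapped, at 354.2 to 383.2 and 335.6 to 373.3 CPM, of which Ighm alone had means of 226.0 and 236.4 CPM. Of the other B cell markers, Ms4a1 and Pax5 were lower in every resveratrol library than in any LPS library and fell over 5 libraries (edgeR adjusted p = 0.0417 and 3.71e-05). The part of these cells in the level of Jak3 was not tested. Il2rg itself, named after its values were seen, was at 78.2, 77.0 and 71.5 CPM under LPS and at 98.1, 66.3 and 70.4 CPM in LPS+resveratrol replicates 1, 2 and 3. Replicates 2 and 3 were thus below the LPS libraries and replicate 1 above them, and its log2 fold changes of 0.05 over 6 libraries and −0.15 over 5 did not pass (edgeR adjusted p = 0.882 and 0.0760). Jak3 shares 7.55% of its exon bases with Insl3, which had a total of 35 counts over the 6 libraries.

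Within a library, the ratio of 2 genes does not depend on how the library was scaled. The level of Tyk2 per kb was 8.028 to 9.001 times that of Jak3 in the LPS libraries, and 17.6, 12.2 and 13.6 times in LPS+resveratrol replicates 1, 2 and 3. All resveratrol libraries were thus above all LPS libraries in this ratio. This had to be so, because Tyk2 was higher and Jak3 lower in each of them, and it adds no support to either change. The ratio of Tyk2 to Jak1 was 0.532 to 0.562 with LPS and 0.645 and 0.705 in LPS+resveratrol replicates 2 and 3, but 0.433 in replicate 1. Here the odd library lay on the other side of the LPS group. No test was run on these ratios.

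Jak1 pairs with receptor chains of interferons, IL-10 and the IL-6 family. It was at 606.5, 586.8 and 593.4 CPM with LPS and at 578.9 and 595.8 CPM in LPS+resveratrol replicates 2 and 3, but at 936.7 CPM in replicate 1. Apart from that library the groups overlapped. The log2 fold change was 0.24 ± 0.191 (SE, n = 3 each; edgeR adjusted p = 0.507) and changed sign to −0.03 ± 0.0515 over 5 libraries (edgeR adjusted p = 0.738). Jak2, the kinase of the receptors for GM-CSF, G-CSF and erythropoietin, was at 328.9, 316.8 and 321.1 CPM with LPS and at 525.8, 332.3 and 349.7 CPM in LPS+resveratrol replicates 1, 2 and 3. All of its resveratrol values were above its LPS values, though replicate 2 by little. Its log2 fold changes of 0.32 ± 0.181 over 6 libraries and 0.07 ± 0.0531 over 5 did not pass (edgeR adjusted p = 0.362 and 0.354).

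**Figure D2:**
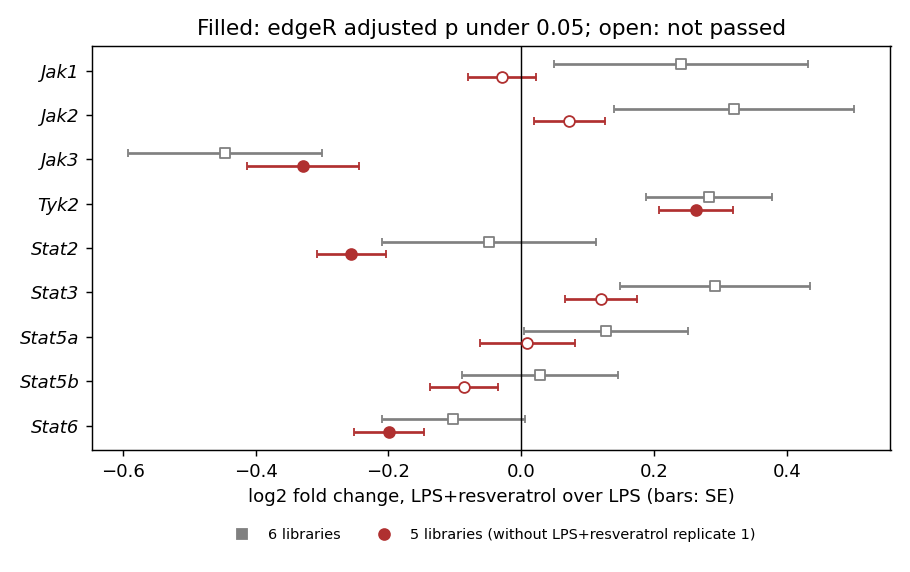
log2 fold change of each gene, LPS+resveratrol over LPS, with bars of 1 SE, from the edgeR fit over 6 libraries (grey squares) and over 5 without LPS+resveratrol replicate 1 (red circles), filled where the adjusted p was under 0.05. All grey squares are open, and the filled circles are Jak3, Tyk2, Stat2 and Stat6.

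Stat2 works with IRF9 in the complex that interferons activate, and its promoter carries the letters of that complex's binding element. Of the 11 promoter windows that RefSeq lists for the 9 genes (GRCm38.p6, the 250 bases before each start), 1 held the core GAAANNGAAA on either strand, that of Stat2, against 2.98% of 32841 windows of all genes. The STAT dimer element TTCNNNGAA was in 0 of the 11 and in 7.02% of all windows. The Stat2 window, chr10:128270248-128270497 on the plus strand, reads as follows, with the core, which lies on the minus strand, in capitals.
Stat2: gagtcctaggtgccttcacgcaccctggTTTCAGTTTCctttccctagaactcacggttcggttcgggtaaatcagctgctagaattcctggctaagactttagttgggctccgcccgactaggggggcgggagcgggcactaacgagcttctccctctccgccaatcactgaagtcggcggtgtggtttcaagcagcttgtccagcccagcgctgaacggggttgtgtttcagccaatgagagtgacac

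The core and 8 bases on each side can be set beside those of genes that the STAT2-IRF9 complex is known to induce, all read 5′ to 3′ on the strand that gives GAAANNGAAA, with the core in capitals. Of 8 such genes matched by symbol, 4 held the core (Ifit1, Ifit3, Isg15 and Rsad2), and those of Isg15 overlap each other. It ends 212 bases before the start of Stat2 and 112, 75 and 110 bases before those of Ifit3, Ifit1 and Rsad2 for the matches nearest the start, at chr10:128270268-128270293, chr19:34583399-34583424, chr19:34640796-34640821 (each on the minus strand) and chr12:26456555-26456580 (plus strand).
Stat2: agggaaagGAAACTGAAAccagggtg
Ifit3: ggaaagtaGAAACTGAAAcagactta
Ifit1: agcagtgaGAAACTGAAActgagact
Rsad2: tgttttctGAAAATGAAAgttggacc
Ifit3 and Ifit1 each hold a further core with other letters in its middle, which ends 146 and 94 bases before the start, at chr19:34583365-34583390 and chr19:34640777-34640802 (both on the minus strand). The 3 overlapping matches of Isg15 end 56, 62 and 68 bases before its start.
Ifit3, further match: cagaagagGAAAGTGAAActtaccac
Ifit1, further match: tgagactgGAAAGTGAAActgaagcc
A match of letters is a description and does not show that a factor binds there.

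The level of Stat2 was 265.8, 254.4 and 271.9 CPM with LPS and 321.0, 215.8 and 229.1 CPM in LPS+resveratrol replicates 1, 2 and 3. Replicates 2 and 3 were below all LPS libraries and replicate 1 above them. The log2 fold change was −0.05 ± 0.161 over 6 libraries (SE, n = 3 each; edgeR adjusted p = 0.886) and −0.26 ± 0.0521 without replicate 1 (edgeR adjusted p = 0.000228), a fall of 16.3% there. That 5-library call held in all 11 fits tried, with log2 fold changes between −0.30 and −0.22. Its partner Irf9, named after its values were seen, averaged 277.3 CPM in the 3 LPS libraries and 260.2 CPM in the 3 others (edgeR adjusted p = 0.622) and fell by 0.16 on the log2 scale over 5 libraries (edgeR adjusted p = 0.0166).

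Stat6 is the factor of IL-4 and IL-13 signals. It was at 333.9, 336.1 and 340.8 CPM with LPS and at 351.0, 303.1 and 287.5 CPM in LPS+resveratrol replicates 1, 2 and 3, so that again replicates 2 and 3 were below and replicate 1 above the LPS group. The log2 fold change was −0.10 ± 0.108 over 6 libraries (SE, n = 3 each; edgeR adjusted p = 0.617) and −0.20 ± 0.0530 over 5 (edgeR adjusted p = 0.00424). This call was lost when LPS+resveratrol replicate 3 was also left out (−0.17, edgeR adjusted p = 0.123) and, narrowly, with offsets for transcript length and GC content (−0.13, edgeR adjusted p = 0.0502). Over 6 libraries those offsets turned its sign (0.04, edgeR adjusted p = 0.890).

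Stat3, the factor of IL-6, IL-10 and G-CSF signals, was at 324.7, 341.2 and 332.5 CPM with LPS and at 494.3, 350.0 and 378.0 CPM in LPS+resveratrol replicates 1, 2 and 3. All its resveratrol values were above its LPS values. The log2 fold changes of 0.29 ± 0.143 over 6 libraries and 0.12 ± 0.0539 over 5 did not pass (SE; edgeR adjusted p = 0.306 and 0.101). With length and GC offsets the 5-library change narrowly passed (0.14, edgeR adjusted p = 0.0499). With Jak2, Jak3 and Tyk2, Stat3 made 4 of 9 genes whose groups did not overlap over 6 libraries, where 33.3% of tested genes had none (17.3% higher and 15.9% lower with resveratrol), and over 5 libraries 7 of 9 did not overlap against 49.9%.

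Stat5a and Stat5b, neighbouring genes whose proteins are near-identical and carry signals of GM-CSF and other growth factors, did not pass in either fit. Stat5a ranged from 51.0 to 54.8 CPM with LPS and from 51.2 to 65.9 CPM with resveratrol, and Stat5b from 167.1 to 183.0 and from 161.4 to 201.1 CPM. Both had their highest value in LPS+resveratrol replicate 1. Over 5 libraries the log2 fold changes were 0.01 ± 0.0717 for Stat5a and −0.09 ± 0.0507 for Stat5b (SE; edgeR adjusted p = 0.944 and 0.232). Per kb, Stat5b was 2.39 to 2.49 times Stat5a with LPS and 2.24 to 2.35 times with resveratrol, but how the counting split reads between such similar genes is not given in the sources used here. Stat5a also shares 1.01% of its exon bases with Stat3 on the opposite strand.

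**Figure D3:**
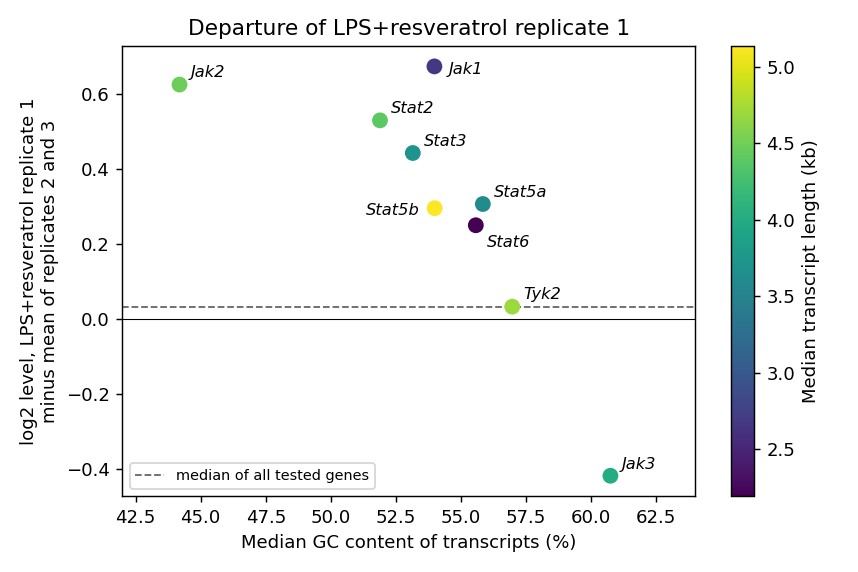
Level of LPS+resveratrol replicate 1 minus the mean of replicates 2 and 3 (log2 CPM, vertical axis) against the median GC content of each gene's transcripts (horizontal axis), coloured by median transcript length in kb, with a dashed line at the median of all tested genes (0.03). Jak2, at a GC content of 44.2%, lies at 0.63, and Jak3, at 60.7%, at −0.42. Tyk2, Stat5a and Stat6, at 57.0%, 55.8% and 55.6%, lie at 0.03, 0.31 and 0.25.

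In LPS+resveratrol replicate 1, all 9 genes except Jak3 lay above the mean of replicates 2 and 3. The difference was largest among them for Jak1 (0.67 on the log2 scale), Jak2 (0.63) and Stat2 (0.53), and it was −0.42 for Jak3. Over all tested genes the median of this difference was 0.03. It was 0.36 for genes with median transcripts over 4 kb and −0.33 for those under 1 kb, and 0.28 for genes with a GC content under 45% and −0.39 for those over 55%. Jak2 had the lowest GC content of the 9 (44.2%) and Jak3 the highest (60.7%). Tyk2, Stat5a and Stat6 were also over 55% (57.0%, 55.8% and 55.6%) but lay 0.03, 0.31 and 0.25 above replicates 2 and 3. Jak1, with the largest difference, was at 54.0%. The cause of these differences was not tested. With offsets for length and GC content the 6-library log2 fold change of Jak2 went from 0.32 to 0.12 and that of Jak3 from −0.45 to −0.32, whereas that of Jak1 went from 0.24 to 0.30.

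Among 128 pathway genes in the table beside the 9, 110 could be tested, of which 2 rose and 10 fell over 6 libraries, and 10 rose and 39 fell over 5. Over all tested genes 0.668% rose and 1.17% fell over 6 libraries, and 12.1% rose and 13.3% fell over 5, and the counts of each list below are to be read against these shares. The median log2 fold changes of the 110 genes were −0.15 and −0.12, where those of all tested genes were 0.00 and −0.01. When any 1 of the other 5 libraries was left out, edgeR called 0 of all 13468 genes and so none of these 12, while their log2 fold changes kept their sign and were 0.867 to 1.09 times those over 6 libraries. Of 13 tested cytokine ligands, Csf3 (G-CSF) and Il12a fell and Il10 rose over 6 libraries, with log2 fold changes of −2.48, −0.91 and 1.01 (edgeR adjusted p = 0.0191, 0.0204 and 0.0380). The median over that list was −0.34, and over 5 libraries 2 rose (Il10 and Il6) and 5 fell (Csf3, Il12a, Il27, Osm and Ebi3). Genes called in the 5-library fit but not over 6 libraries are outside the rule for named genes and are named after their values were seen.

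Of 29 tested receptor chains, which hold the JAKs, 0 rose and 2 fell over 6 libraries, and 0 rose and 9 fell over 5, against 12.1% and 13.3% of all tested genes. The median log2 fold changes were −0.09 and −0.06. Il13ra1, a chain of the IL-13 receptor, was at 29.6, 28.7 and 25.8 CPM with LPS and at 16.9, 15.3 and 13.4 CPM with resveratrol (log2 fold change −0.88 ± 0.131 SE, edgeR adjusted p = 0.0285). Csf2rb2, a beta chain of the IL-3 receptor in mice, fell from 95.4 to 58.6 CPM (means of 3; log2 fold change −0.70 ± 0.0938 SE, edgeR adjusted p = 0.0252). Both held without LPS+resveratrol replicate 1, at −0.98 and −0.74. Csf2rb2 closely resembles its neighbour Csf2rb, so the split of reads between them is uncertain.

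Of 20 inhibitors of the pathway, which are SOCS proteins, phosphatases and others, 0 passed over 6 libraries with edgeR, 5 had an unadjusted p under 0.05 (19.9% over all tested genes), DESeq2 called Pdlim2 and Usp18 lower and limma-voom called 0. The 2 most abundant, the phosphatases Ptprc (CD45) and Ptpn1, had log2 fold changes of 0.42 and −0.06 (edgeR adjusted p = 0.193 and 0.772). Over 5 libraries Ptprc rose (log2 fold change 0.23, edgeR adjusted p = 0.000135), whereas Ptpn1 did not pass (0.0026, edgeR adjusted p = 0.978). Socs4 and Pias3 also rose there and Ptpn6, Usp18 and Pdlim2 fell, so that 3 of 20 were called in each direction, a share near those of all tested genes (12.1% and 13.3%). Of 12 partner proteins, 0 rose and 1 fell over 6 libraries, the STAT-binding protein Nmi, from 74.6 to 47.2 CPM (means of 3; log2 fold change −0.66, edgeR adjusted p = 0.0397), and over 5 libraries Crebbp rose and Nmi, Irf9, Sh2b2 and Prmt1 fell.

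The targets of each factor are given in turn. Of 12 STAT3 targets, Nfil3 rose and Fgl2 fell over 6 libraries (log2 fold changes 0.62 and −0.71, edgeR adjusted p = 0.0368 and 0.0285), with a list median of −0.13, and over 5 libraries Nfil3 and Bcl3 rose and Fgl2, Il1rn and Hp fell, with a median of 0.04. Of 10 STAT5 targets, the cyclin gene Ccnd2 fell by 0.63 on the log2 scale over 6 libraries (edgeR adjusted p = 0.0469), and over 5 libraries Pim2 rose and Ccnd2, Bcl2l1 and Osm fell. Of 9 tested STAT6 targets 0 passed over 6 libraries with edgeR, where 2 had an unadjusted p under 0.05 (19.9% over all tested genes), DESeq2 called Chil3 lower and limma-voom called 0, and over 5 libraries Tgm2 rose and Chil3 and Pdcd1lg2 fell. The 5-library counts of 2 higher and 3 lower STAT3 targets, 1 and 3 STAT5 targets and 1 and 2 STAT6 targets stand against 12.1% higher and 13.3% lower among all tested genes. The 2 most abundant, Chil3 and Tgm2, had log2 fold changes of −0.76 and 0.13 over 6 libraries (edgeR adjusted p = 0.123 and 0.528) and of −0.55 and 0.18 over 5 (edgeR adjusted p = 4.20e-12 and 0.0108).

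The 12 genes of the list of STAT2-IRF9 targets were all on the negative side, and their median log2 fold change was −0.56. Over 6 libraries 0 rose and 3 fell, namely Ifit3, Rsad2 and Ifit2 (log2 fold changes −0.83, −0.53 and −0.68, edgeR adjusted p = 0.0243, 0.0378 and 0.0486). With DESeq2 10 fell over the same 6 libraries, where 3.34% of all tested genes did, and with length and GC offsets in edgeR 7 fell, against 2.16%. Over 5 libraries all 12 fell, with a median of −0.51, against 13.3% of all tested genes. Stat2 itself fell by 0.26 in the same fit. In LPS+resveratrol replicate 1, where Stat2 was above the LPS group, Oas2 was at 665.7 CPM, above its highest LPS value of 604.7 CPM, and every other gene of the list was below its lowest LPS value, as was Ifit3 at 313.5 against 478.9 CPM. Of the 8 monocyte and macrophage markers, Csf1r, Ly6c2, Ccr2 and Cx3cr1 were lower and Adgre1 higher in every resveratrol library. Over 5 libraries 5 of the 8 fell and 2 rose, against 13.3% and 12.1% of all tested genes. Their summed levels overlapped between the groups. The part of these cells in the level of the STAT2-IRF9 targets was not tested. Ifit3 has a near-identical neighbour, Ifit3b, so the split of reads between them is uncertain.

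**Figure D4:**
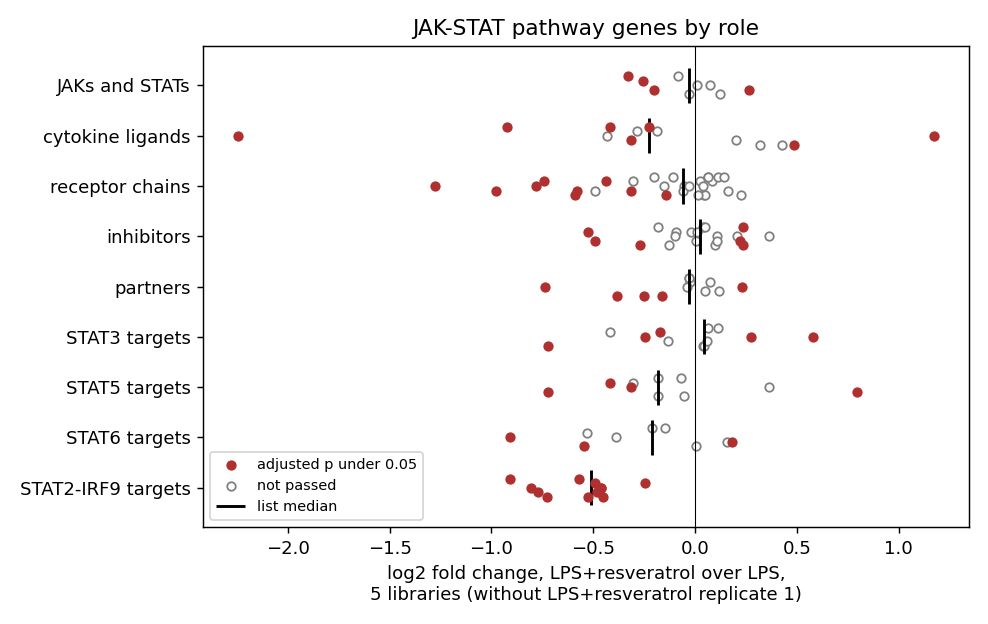
log2 fold change of each tested gene over 5 libraries (LPS+resveratrol over LPS, without LPS+resveratrol replicate 1), by role in the pathway, red where the edgeR adjusted p was under 0.05, with a black bar at each list's median. The medians run from −0.51 for STAT2-IRF9 targets to 0.04 for STAT3 targets.

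Jak3 had the smallest p of the 9 genes over 6 libraries, and the tested genes whose pattern over the 6 libraries was most like it were Nr1h3, Ruvbl2 and Trp53. Their log2 CPM, each centred on its own mean, differed from that of Jak3 by a root mean square of 0.03, 0.03 and 0.04, where the median over all tested genes was 0.38. Nr1h3 encodes a liver X receptor, Ruvbl2 an ATPase of chromatin complexes and Trp53 the p53 protein. None of the 3 passed over 6 libraries (edgeR adjusted p = 0.183, 0.145 and 0.173). Over 5 libraries Ruvbl2 and Trp53 fell (log2 fold changes −0.39 and −0.32, edgeR adjusted p = 0.00590 and 0.00250), as Jak3 did, and Nr1h3, at −0.36, did not pass (edgeR adjusted p = 0.0656). The 3 genes were chosen for their likeness to Jak3 in these same libraries. Their direction follows from that choice and adds no support.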

How the data were processed

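The authors deposited whole-number read counts per Ensembl gene ID for 6 libraries, without normalization. Per the submitters' processing notes, Bowtie 0.12.2 and the mm8 build were used. How reads were counted, against which annotation and with what strand setting, is not given in the sources used here. Gene IDs match a later annotation than mm8's, so no coordinates are taken from the counts. Symbols came from GENCODE M21, which matched 25595 of 25663 IDs. Genes were kept by filterByExpr of edgeR 4.0.16 (minimum count 10), scaled by TMM factors and tested with its robust quasi-likelihood test of group alone (R 4.3.3), two-sided, with Benjamini-Hochberg adjustment over 13468 genes and a threshold of 0.05. The same genes were tested without LPS+resveratrol replicate 1. SEs were taken from the F statistic.

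The alternatives were DESeq2 1.42.0, limma-voom (limma 3.58.1) with and without library quality weights, other scalings and filters, offsets for transcript length and GC content, the replicate number as a block, and leaving out samples. Members and lists were chosen with earlier results of these data known. Named were the 9 members, up to 3 genes per list with the smallest adjusted p among those that passed over 6 libraries, or the 2 most abundant where none did, and the 3 genes most like the member with the smallest p. Within groups no pair of libraries had identical counts, and a chi-square comparison of their counts gave at least 3.29 per degree of freedom, more than counting noise, so each was counted as 1 sample. This does not show that they are separate cultures or animals. On simulated counts with 200 changed genes in each of 5 draws, 39.5% of 2-fold and 2.66% of 1.5-fold changes were recovered over 6 libraries (13209 to 13235 genes), and 80.2% and 56.6% over 5 (13242 to 13262 genes). Of the simulated calls, 9.79% and 10.6% were unchanged genes, above the threshold. Each draw gave all libraries the same gene dispersions, so LPS+resveratrol replicate 1 was not simulated as an outlying library and the shares are a rough guide.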

Additional observations from a re-analysis of the deposited data

How the results depend on the processing

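Simulated 1.5-fold changes were larger than any of the 4 calls among the 9 genes. They were recovered in 2.66% of cases over 6 libraries, in draws that held no outlying library. The 0 calls over 6 libraries thus do not show equal levels. Calls among the 9 genes were 0 higher and 0 lower in each fit with all 6 libraries or without any 1 library other than LPS+resveratrol replicate 1, except that library quality weights in limma-voom gave 1 higher and 3 lower. Leaving out that replicate gave 1 higher and 3 lower with edgeR, DESeq2, limma-voom, median-of-ratios factors and unscaled totals, and 2 higher and 2 lower with length and GC offsets. Leaving out a further library gave 0 to 1 higher and 2 to 3 lower. Of the pathway genes, 2 were called higher and 10 lower with edgeR, and 20 lower with DESeq2. Quality weights gave 10 higher and 36 lower, and leaving out each library gave 0 to 10 higher and 0 to 39 lower. Without LPS+resveratrol replicate 1, the counts were 10 higher and 37 lower with DESeq2, 10 and 39 with limma-voom, median-of-ratios factors and unscaled totals, 11 and 39 with offsets, and 5 to 10 and 32 to 40 with a further library left out. The cause was not tested.

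With the replicate block, edgeR called 0 of all 13468 tested genes, and so 0 of the 9 genes and 0 higher and 0 lower pathway genes. The same held without any 1 library other than LPS+resveratrol replicate 1. No pairing by number was seen: deviations of same-numbered libraries from their group means correlated at 0.020, −0.017 and 0.000 across genes. For numbers 2 and 3 another number correlated better. The check cannot exclude a pairing, because the departure of LPS+resveratrol replicate 1 enters the deviations of its whole group. Its counts differed from those of replicates 2 and 3 by a chi-square of 117.0 and 119.9 per degree of freedom, against 3.29 between those 2.

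The signs of Jak2, Jak3, Tyk2 and Stat3 did not turn in any setting run, and those of the other 5 genes turned in at least 1, Stat2 and Stat6 only in fits that held LPS+resveratrol replicate 1. Jak1 went from 0.24 to −0.0058 with quality weights, and without LPS+resveratrol replicate 1 to −0.029 with edgeR, −0.0287 with limma-voom, −0.0231 with DESeq2 and with median-of-ratios factors, and −0.0459 with unscaled totals. With offsets and without that replicate, Jak1 kept its sign, at 0.0168. Stat5b went from 0.028 to −0.071 with quality weights, −0.0096 with unscaled totals and −0.0035 with offsets. Without LPS+resveratrol replicate 1 it was −0.086 with edgeR, −0.080 with DESeq2 and with median-of-ratios factors, −0.085 with limma-voom, −0.103 with unscaled totals and −0.0705 with offsets. Stat5a went from 0.13 to −0.0079 with unscaled totals without that replicate, and Stat6 from −0.10 to 0.0415 with offsets over 6 libraries. With 1 library left out, or LPS+resveratrol replicate 1 and another, the log2 fold changes ranged from −0.0537 to 0.36 for Jak1, from −0.30 to 0.0591 for Stat2, from −0.0532 to 0.20 for Stat5a and from −0.112 to 0.0879 for Stat5b.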
